A study of Homo sapiens with 10 samples.

Results

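The genes of the NF-kB transcription factor subunits and of the inhibitors that NF-kB itself induces were examined in the chromatin maps of a breast cancer cell line. The 9 genes were chosen by name as the 5 subunit genes (NFKB1, NFKB2, RELA, RELB and REL) and 4 inhibitor and feedback genes (NFKBIA, NFKBIE, TNFAIP3 and BIRC3), out of 20098 protein-coding genes of chromosomes 1 to 22 and X. A promoter was any annotated start site of a gene widened by 1 kb on each side, and the window of a gene was the gene widened by 50 kb on each side. Of 128837 peaks in the 4 deposited lists, 144 lay in the 9 windows.

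MDAMB231, an established line of triple-negative breast cancer with a mesenchymal appearance, was grown untreated in DMEM with 5% fetal bovine serum. ChIP-seq was made for H3K4me3, a mark of active and poised promoters, for H3K27Ac, a mark of active promoters and enhancers, and for H3K4me1, a mark of enhancers, each in 2 samples. FAIRE-seq, which recovers DNA free of nucleosomes after fixation in 1% formaldehyde, was made in 2 samples, and both kinds of experiment had input DNA. Each assay had 1 peak list made from its combined samples, so no value below has a replicate error and no test was made. Read depth is not in the lists.

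NF-kB proteins are dimers of subunits that share the Rel homology domain, which binds DNA and joins the partners. In resting cells, inhibitor proteins of the IkB family hold the dimers in the cytoplasm. Signals from receptors of the TNF, interleukin and Toll-like families activate IkB kinases, the inhibitor is destroyed, and the dimer enters the nucleus. Among the genes it then switches on are its own inhibitors, which end the response, and several of its own subunits. Triple-negative breast cancer lines are known for NF-kB activity without an added stimulus. Neither RNA nor NF-kB binding was measured here, so the values below describe chromatin marks and sequence alone.

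The kB element is the sequence to which the dimers bind, and it was looked for by letters in the promoter of each gene, from 250 bases before to 50 bases after the canonical start site, on both strands of GRCh37. The 10-base kB consensus was found in 8 of the 9 promoters, against 6.56% of 19819 promoters of protein-coding genes and 6.65% of the promoters of genes with H3K4me3 and H3K27Ac peaks at a start site. RELA was the exception. A pair of matches or more was found in 5 of the 9 (NFKB2, RELB, REL, TNFAIP3 and BIRC3), against 0.802% of all promoters. All 13 matches lay upstream of the canonical start site, the closest ending 12 bases and the farthest starting 199 bases before it. The consensus reads nearly alike on both strands, and the pair of matches of REL overlap, 1 base apart.

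Stretches with these matches are shown for 7 of the 8 genes because they carry the feature that the promoters shared, with kB matches in capitals. The stretches of NFKBIA (chr14:35873956-35874105, minus strand), BIRC3 (chr11:102188000-102188105, plus strand) and RELB (chr19:45504577-45504682, plus strand) lay upstream of all start sites of their genes. That of NFKB1 (chr4:103422457-103422486, plus strand) ended at the base before the outermost start site, and that of TNFAIP3 (chr6:138188325-138188354, plus strand) reached 4 bases into the gene. Those of NFKB2 (chr10:104155431-104155460, plus strand) and REL (chr2:61108652-61108681, plus strand) lay between the outermost and the canonical start site, and only the match nearer to the start site is shown for NFKB2. Coordinates are those of GRCh37 (hg19) and each sequence reads 5′ to 3′ along the strand of its gene.
NFKB1: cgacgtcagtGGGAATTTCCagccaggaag
NFKB2: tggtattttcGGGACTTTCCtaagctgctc
RELB: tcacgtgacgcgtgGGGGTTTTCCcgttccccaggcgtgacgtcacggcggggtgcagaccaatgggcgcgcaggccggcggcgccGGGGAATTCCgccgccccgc
REL: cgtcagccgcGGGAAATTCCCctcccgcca
NFKBIA: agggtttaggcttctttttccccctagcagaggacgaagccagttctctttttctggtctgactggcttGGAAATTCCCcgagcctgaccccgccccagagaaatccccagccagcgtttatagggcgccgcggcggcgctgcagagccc
TNFAIP3: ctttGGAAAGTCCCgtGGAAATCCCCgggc
BIRC3: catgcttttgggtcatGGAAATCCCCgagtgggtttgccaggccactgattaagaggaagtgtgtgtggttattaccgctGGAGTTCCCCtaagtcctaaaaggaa

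Measured from the canonical start site, the match began 49 bases upstream in NFKB1 and 81 bases upstream in NFKBIA. In TNFAIP3 the pair of matches began 67 and 55 bases upstream, 12 bases apart. In BIRC3 they began 199 and 135 bases upstream, 64 bases apart, and in RELB 131 and 59 bases upstream, 72 bases apart. All 13 matches lay under an H3K4me3 peak and under an H3K27Ac peak, as did the canonical start sites of all 9 genes. Each match lay within 199 bases of such a start site, so these overlaps add little to the promoter peaks themselves. Only the 2 matches of BIRC3 lay under a FAIRE peak. The shares over kB matches of other promoters were not counted. A match is a description of letters and does not show that a factor was bound.

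Other short sequences were spread differently over the same promoters. The GC box, GGGCGG on either strand, to which Sp1 family factors bind, was found in 8 of the 9 promoters, against 61.5% of all promoters, and BIRC3 was the gene without it. Its share over promoters of genes with H3K4me3 and H3K27Ac peaks, which all 9 genes had, was not counted. The AP-1 site, TGANTCA on either strand, was found in the promoter of NFKBIE alone, 1 of 9, against 5.41% of all promoters.

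**Figure D1:**
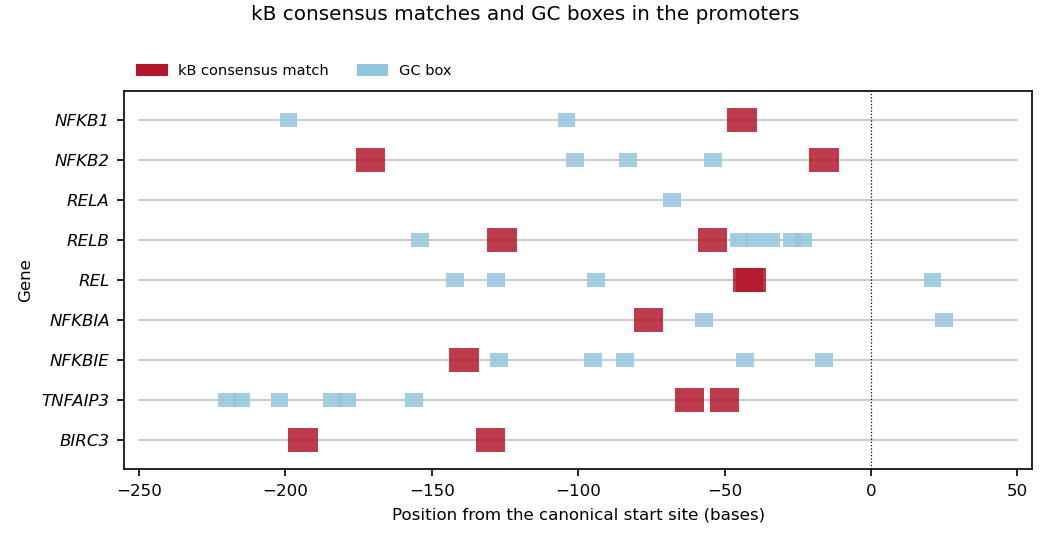
Matches to the kB consensus (red) and GC boxes (blue) in each promoter, from 250 bases before to 50 bases after the canonical start site (horizontal axis, bases). The kB matches of 8 genes lay within 199 bases upstream of the start site, and RELA held a GC box only.

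All 9 genes carried both marks of an active promoter. A promoter H3K4me3 peak was found at 9 of 9 genes, against 67.3% of protein-coding genes, and a promoter H3K27Ac peak likewise at 9 of 9, against 63.5%. The promoters differed in the other 2 lists. A FAIRE peak lay at the promoters of 5 genes (NFKB2, RELA, RELB, NFKBIA and BIRC3), against 39.3% of protein-coding genes, and the same 5 genes held H3K4me3, H3K27Ac and FAIRE together, against 36.5%. Among all genes with promoter H3K4me3 and H3K27Ac, 59.6% had a promoter FAIRE peak, so 5 of 9 was near the share of genes marked in the same way. A promoter H3K4me1 peak was found at 2 genes, NFKB1 and BIRC3, against 20% of protein-coding genes and 28.8% of those with both other marks. That of NFKB1 lay 32.9 kb downstream of the canonical start site and was counted through a start site inside the gene.

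The H3K4me3 score, minus 10 times log10 of the p-value of the peak, told the promoters apart little. It stood at 3100, where the caller's values pile up, at 8 of the 9 genes and at or above it at 81.8% of all protein-coding genes with such a peak. The exception was BIRC3, at 2427. The width of the H3K4me3 peak was more informative. Its median was 4260 bp over the 9 genes and 2946 bp over all genes with a promoter peak. The broadest, 5807 bp at NFKBIA, spanned the whole gene (chr14:35869724-35875530) and was wider than the promoter peaks of 97.0% of genes.

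The H3K27Ac scores of the promoters ranged from 255 at BIRC3 to 3100 at RELA, and a difference between the roles was not tested. The median score was 964 over the 9 genes and 1357 over all protein-coding genes with a promoter H3K27Ac peak. RELA scored 3100, NFKB1 2530, NFKB2 2218 and REL 1775, each above the median of all genes. RELB scored 517, above 18.4% of genes with a peak and within the range of the inhibitor and feedback genes. All 4 inhibitor and feedback genes scored below that median, with NFKBIA at 964, TNFAIP3 at 708, NFKBIE at 469 and BIRC3 at 255. BIRC3 exceeded only 8.63% of the genes with a promoter peak.

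FAIRE peaks at the promoters were mostly low. The median height over the 5 genes with one was 41.6, against 69.2 over all protein-coding genes with a promoter FAIRE peak. BIRC3 had the highest, 97.6, above 77.2% of genes, and NFKB2 followed at 74.3. RELB (41.6), RELA (36.6) and NFKBIA (30.8) had peaks above 10.4%, 6.02% and 2.26% of genes. The heights did not follow the H3K27Ac scores, since BIRC3 had the highest FAIRE peak and the lowest H3K27Ac score of the 9 promoters.

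NFKB1 encodes the precursor of a subunit that has a DNA-binding but no activation domain. Its gene (chr4:103422487-103538459, plus strand) was the longest of the 9, and at the canonical promoter it carried an H3K4me3 peak of 4260 bp and an H3K27Ac peak of 4314 bp without a FAIRE peak. The nearest FAIRE peaks, of heights 39.4 and 37.4, adjoined each other inside the gene, 33.2 kb and 34.4 kb from the start site, under an H3K27Ac peak (score 158) and an H3K4me1 peak (score 185). No other protein-coding gene had its canonical start site in the window, and the other marked regions lay beyond the end of the gene.

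There, toward and inside the neighbouring gene MANBA, 4 FAIRE peaks followed each other from 119 kb to 162 kb downstream of the start site. The highest FAIRE peak of the window, of height 138, lay between NFKB1 and MANBA (chr4:103548445-103549717) and was higher than 96.5% of the list. It was found under an H3K27Ac peak of score 280 and an H3K4me1 peak of score 213. The highest-scoring distal H3K27Ac peak of the window, 929, was a different region, inside MANBA (chr4:103560859-103563285), with a FAIRE peak of height 79.5 and an H3K4me1 peak of score 319. All 6 FAIRE peaks of the NFKB1 window thus overlapped H3K27Ac, and 5 of them H3K4me1.

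NFKB2 encodes the precursor subunit of the non-canonical pathway, in which processing by the proteasome releases a dimer with RelB. The gene is short (chr10:104153867-104162281, plus strand) and its promoter H3K4me3 peak of 4334 bp covered a cluster of start sites. The FAIRE peak (chr10:104153456-104154466) lay over the outermost start sites, and its edge was 996 bp upstream of the canonical start site. That peak held 5 kB matches, 4 of them in overlapping pairs, and none in the promoter stretch around the canonical start site. A second H3K4me3 peak inside the gene scored 587, with H3K27Ac at 120. All other peaks of the window touched start sites of other genes, namely GBF1, PSD, FBXL15, CUEDC2 and C10orf95, and no distal peak was found in any of the 4 lists.

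RELA encodes the activating subunit found in most canonical dimers. Its promoter (gene at chr11:65421070-65430561, minus strand) had the highest H3K27Ac score of the 9, 3100, with peaks of 3532 bp (H3K4me3) and 3533 bp (H3K27Ac). The same peaks covered the start of RELA-DT, a non-coding transcript that runs the other way. The FAIRE peak of height 36.6 lay over the start site and the first part of RELA-DT. The window held 7 FAIRE peaks and no H3K4me1 peak. The other 6 FAIRE peaks lay at start sites of MAP3K11 and PCNX3 or of KAT5, and the highest of these, 152, stood between MAP3K11 and PCNX3. The marked regions around RELA were therefore promoters of neighbours, apart from a weak H3K27Ac peak (score 85.3) 17.5 kb upstream and an H3K4me3 peak (score 1362) across the end of the gene. SIPA1 was another neighbour with peaks at its start sites.

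RELB encodes a subunit that acts mainly with the product of NFKB2. The gene (chr19:45504719-45541450, plus strand) had an H3K4me3 peak of 2767 bp, the narrowest of the 9, and a FAIRE peak of height 41.6 that began 108 bp downstream of the canonical start site. All remaining peaks of its window lay at promoters of CLPTM1, CLASRP, ZNF296, GEMIN7 and MARK4. As in the RELA window, no H3K4me1 peak was found.

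REL encodes c-Rel, a subunit best known from lymphocytes. Its window was the barest, with 3 peaks in all. The promoter (gene at chr2:61108626-61158747, plus strand) carried an H3K4me3 peak of 4544 bp and an H3K27Ac peak of 5224 bp with a score of 1775, both of which also covered the start of the non-coding REL-DT. The only FAIRE peak, of height 32.6, lay 66.9 kb from the start site inside PUS10, with none of the 3 marks. The nearest H3K4me1 peak of the list was 577434 bp from the start site. REL thus had a broad, acetylated promoter without any histone-marked region around it in the window.

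NFKBIA encodes IkB-alpha, the inhibitor that is degraded on stimulation and made again under NF-kB control. This small gene (chr14:35870285-35873955, minus strand) stood amid many distal peaks, although no other protein-coding gene had its canonical start site in the window. The window held 9 FAIRE, 6 H3K4me1 and 5 H3K27Ac peaks. Those other than the promoter's own all lay distal to coding start sites. H3K4me1 peaks covered 26.2% of the window, a larger share than in 99.3% of protein-coding genes. FAIRE peaks stood at 8.68 per 100 kb, above 98.7% of genes.

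The highest H3K27Ac score of the NFKBIA window was not at the promoter, which scored 964. An H3K27Ac peak of score 3100 (chr14:35833256-35837280) lay 36.7 kb downstream of the start site, inside an H3K4me1 peak of 9291 bp with a score of 383. It held a pair of adjoining FAIRE peaks, of heights 97.2 and 62.2, the first of which was the highest of the window. On the other side of the gene, H3K27Ac peaks of scores 381 and 914 lay 7.87 kb and 13.8 kb upstream, both with H3K4me1 and FAIRE peaks. A FAIRE peak of height 73.1 stood 2.04 kb upstream of the start site without an overlapping histone peak. The weak FAIRE peak counted as the promoter's, 30.8, lay inside the gene, 421 bp from the start site, and held a kB match near its centre.

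NFKBIE encodes IkB-epsilon, a slower inhibitor of the same family. The gene (chr6:44225903-44233525, minus strand) lies among many others, with 8 canonical start sites of other coding genes in the window against a median of 2 over all genes. H3K4me3 peaks covered 18.7% of the window and H3K27Ac peaks 25.2%, shares that include promoters of SLC29A1, MYMX, HSP90AB1, SLC35B2 and AARS2. The highest H3K27Ac score of the window, 3098, was at HSP90AB1. Outside coding start sites, 1 region stood out, centred between SLC29A1 and HSP90AB1. It had an H3K27Ac peak of score 1310 (chr6:44200832-44206651), an H3K4me3 peak of score 709 and the highest FAIRE peak of the window, 120. An H3K4me1 peak of score 181 covered it and reached a start site of SLC29A1.

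TNFAIP3 encodes A20, a ubiquitin-editing enzyme that stops signalling upstream of the kinases. The promoter (gene at chr6:138188351-138204451, plus strand) had an H3K4me3 peak of 3487 bp and an H3K27Ac peak of score 708 but no FAIRE peak. A pair of distal regions lay upstream, inside the non-coding gene WAKMAR2, and carried all of H3K27Ac, H3K4me1 and FAIRE. The farther, 33.8 kb from the start site (chr6:138150094-138154614), scored 2101 for H3K27Ac and 260 for H3K4me1 and held the highest FAIRE peak of the window, 66.8. The nearer, 12.5 kb away, scored 313 for H3K27Ac and 139 for H3K4me1 with a FAIRE height of 60.3. Another FAIRE peak, of height 37.4 (chr6:138194289-138195075), lay in an intron of TNFAIP3, 5.89 kb downstream, with none of the 3 marks.

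BIRC3 encodes cIAP2, a ubiquitin ligase that acts at TNF receptors and restrains the non-canonical pathway. The gene (chr11:102188215-102210134, plus strand) was the only member whose canonical start site lay under peaks of all 4 lists. The promoter H3K4me1 peak, 9133 bp wide with a score of 109, ran from upstream of the start site into the gene. Its window held 25 peaks, the most of the 9, with 10 FAIRE peaks and 7 H3K4me1 peaks that covered 21.0% of the window, more than in 98.2% of genes. The highest-scoring distal H3K27Ac peak, 1547 (chr11:102182744-102184953), lay 3.26 kb upstream with an H3K4me3 peak of score 604, and the next, 628, lay 9.52 kb upstream. The highest distal FAIRE peak, 60.8, lay 29.1 kb upstream without a histone mark. BIRC2, the tandem paralogue of BIRC3, was the only other coding gene with peaks at its start sites, among them an H3K27Ac peak of score 3100 and 4 FAIRE peaks.

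**Figure D2:**
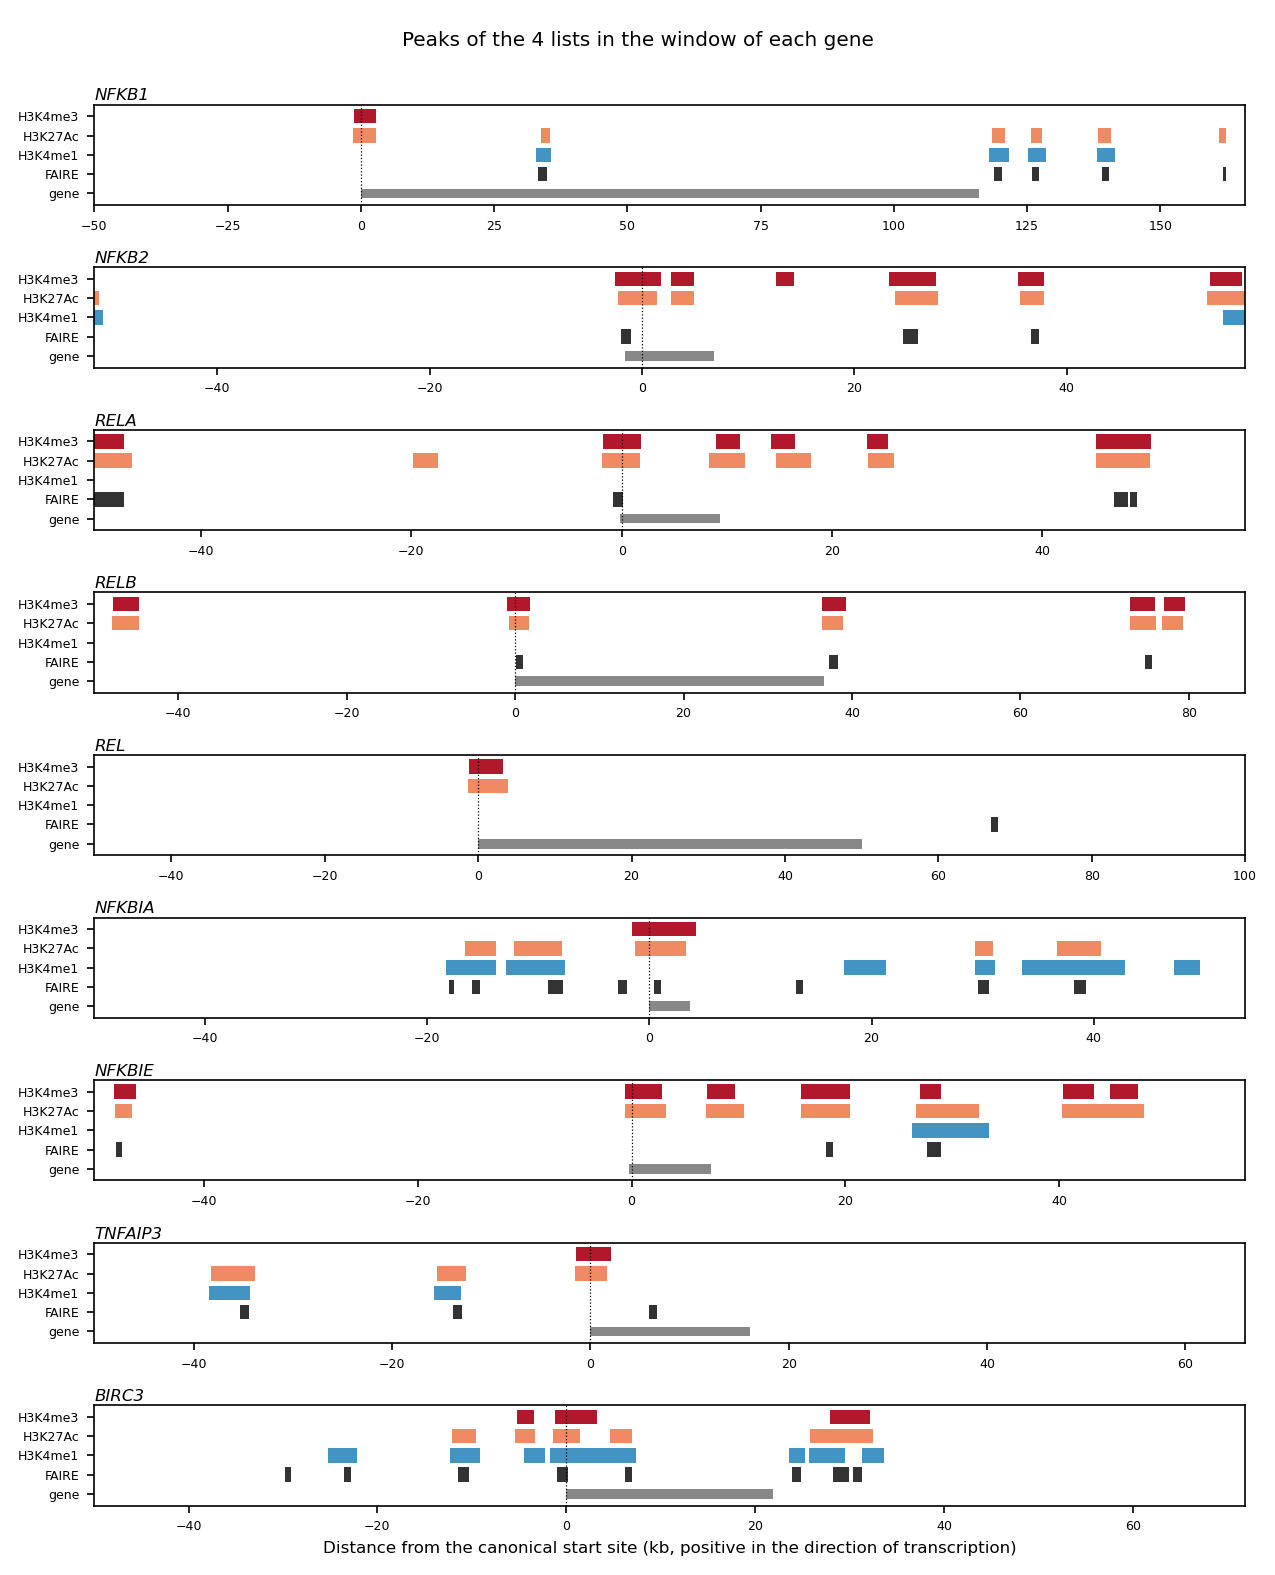
Peaks of the 4 lists in the window of each gene, drawn to scale by distance from the canonical start site (horizontal axis, kb, positive in the direction of transcription; each panel has its own range), with the gene as a grey bar. NFKBIA and BIRC3 have H3K4me1 and FAIRE peaks on both sides of the gene, and RELA, RELB and REL have no H3K4me1 peak.

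Peaks at promoters of coding neighbours left aside, a distal H3K27Ac peak scored above the gene's own promoter in all 4 inhibitor and feedback windows and in none of the 5 subunit windows. Distal refers to coding start sites only. The highest distal peaks of NFKBIA and BIRC3 touched widened start sites of non-coding genes, that of BIRC3 at RNU6-952P. Among the subunits only NFKB1 and RELA had a distal H3K27Ac peak to compare. Over protein-coding genes with a promoter H3K27Ac peak, with or without a distal one, 24.8% had such a higher distal peak. At RELB, a neighbour's promoter, CLPTM1, scored 1744, above the 517 of its own. For NFKBIA the scores were 3100 distal and 964 at the promoter, and for TNFAIP3 2101 and 708. This comparison was chosen after the values were seen. For FAIRE, 5 genes had a promoter peak, but NFKB2, RELA and RELB had no distal FAIRE peak to set against it. Of the other 2, a distal peak was the higher at NFKBIA and not at BIRC3. Over all genes with a promoter FAIRE peak, with or without a distal one, the share was 50.1%.

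**Figure D3:**
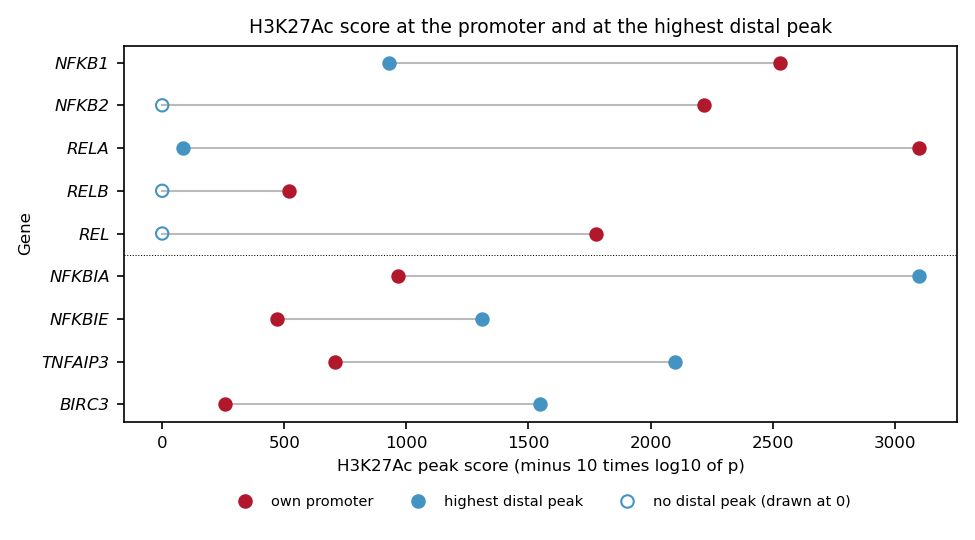
H3K27Ac score (horizontal axis, minus 10 times log10 of p) of the promoter (red) and of the highest distal peak (blue, open at 0 where the window has none) for each gene. The distal score is the higher of the pair for NFKBIA, NFKBIE, TNFAIP3 and BIRC3, below the dotted line, and the lower or missing for the 5 subunit genes.

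The share of a window under H3K4me1 peaks was highest at NFKBIA (26.2%) and BIRC3 (21.0%). NFKBIE (6.76%), NFKB1 (6.06%) and TNFAIP3 (5.84%) lay close together, and NFKB2 had 2.76%. A difference between the roles was not tested. The median share was 5.84% over the 9 genes, against 2.44% over all protein-coding genes. It was 0% over the subunit genes and 13.9% over the inhibitor and feedback genes, a value in the gap between BIRC3 and NFKBIE. No H3K4me1 peak lay in the windows of 37.3% of all genes, and RELA, RELB and REL were among these. For H3K27Ac the median was 13.7% over the 9 genes and 6.17% over all, and for H3K4me3 8.58% and 3.62%. The values over all genes include windows without any such peak, 13.3% of genes for H3K27Ac and 14.6% for H3K4me3. All 9 genes had both promoter peaks, and the medians over genes marked in the same way were not taken. NFKB2, RELA, RELB and NFKBIE, with 4 or more other coding start sites in the window, held the highest H3K4me3 shares, from 10.4% to 18.7%. The part of the neighbours in these shares was not tested. FAIRE peaks numbered a median of 2.92 per 100 kb, against 1.98 over all genes, with REL lowest at 0.666.

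**Figure D4:**
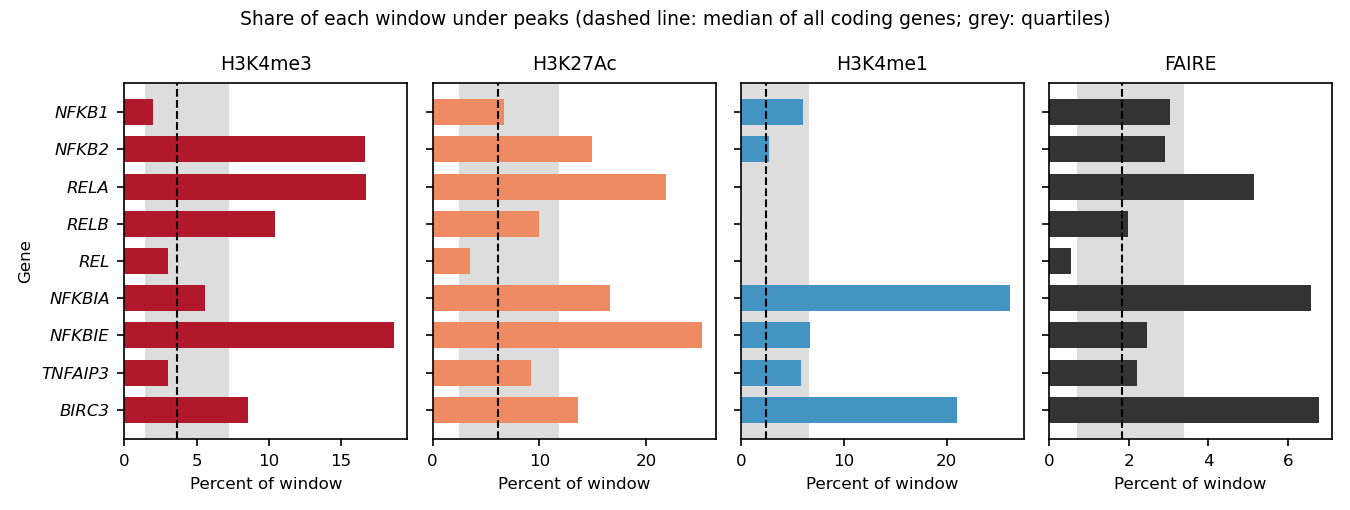
Percent of each window under the peaks of each list (bars), with the median (dashed line) and the quartiles (grey band) of all protein-coding genes. H3K4me1 ranges from 0 at RELA, RELB and REL to 26.2% at NFKBIA.

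Of 47 FAIRE peaks in the windows, 5 were at the genes' own promoters, 18 at start sites of other coding genes and 24 distal. The subunit windows held 7 of the distal peaks, 6 of them at NFKB1, and the inhibitor and feedback windows 17. H3K27Ac overlapped 16 of the 24, or 66.7% (Wilson 95% confidence interval 46.7% to 82.0%), against 67.2% of 37513 distal FAIRE peaks of the whole list. H3K4me1 overlapped 18, or 75% (55.1% to 88.0%), against 61.2%. None of the 3 marks overlapped 5 of them, against 23% of the list. The intervals cover counting error only, and peaks of 1 window are not independent. The H3K4me1 share lay above that of the list in this setting and in each alternative, but these settings recount overlapping sets of peaks. The interval of 55.1% to 88.0% includes the 61.2% of the list. With histone peaks of p at or under 1e-10 only, the H3K4me1 share was 62.5%, against 45%. By the H3K27Ac share and by a median height of 61.3, against 60.5, the distal FAIRE peaks of the windows were much like those of the list.

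The same held for the AP-1 site and the kB element in the distal peaks, whose shares were near those of the list. In the central 300 bases, TGANTCA was found in 12 of the 24 distal FAIRE peaks, or 50%, against 43.8% of distal FAIRE peaks of the list, and the kB consensus in 1, against 3.2%. Distal peaks made up 24 of the 47 FAIRE peaks of the windows, against 37513 of 46536 in the list, so the mix with promoter peaks differed. Over all 47 FAIRE peaks, the kB consensus was found in 5, or 10.6% (4.63% to 22.6%), against 3.43% of the list. AP-1 was found in 15, or 31.9%, against 39.2%, and the GC box in 14, or 29.8%, against 11.7%. The part of the mix of peaks in these shares was not tested. The 5 peaks with a kB match at the centre were those at the promoters of NFKB2 and NFKBIA, at MAP3K11 and at BIRC2, and the intronic peak of TNFAIP3.

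Short stretches of 3 distal peaks show both elements, on the plus strand of GRCh37. The first comes from the highest FAIRE peak of the NFKB1 window, between NFKB1 and MANBA (chr4:103549079-103549145), and the next from the highest of the NFKBIA window, in intergenic sequence (chr14:35834823-35834889), both with TGANTCA in capitals. The last, from the intron of TNFAIP3 (chr6:138194686-138194715), has the kB match in capitals, 14 bases from the centre of the peak.
NFKB1 distal: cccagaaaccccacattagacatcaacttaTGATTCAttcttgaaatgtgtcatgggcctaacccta
NFKBIA distal: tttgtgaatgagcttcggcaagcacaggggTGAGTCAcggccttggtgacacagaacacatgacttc
TNFAIP3 intron: acttagcactGGGGAATTCCagatgttact

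The genes that carry the signal to NF-kB, like the 9 genes, had both marks of an active promoter throughout. Their median share of the window under H3K4me1 was 7.25%, against 5.84% over the 9 genes and 2.44% over all protein-coding genes. Among 22 receptors, adaptors and kinases, all 22 had promoter H3K4me3 and H3K27Ac peaks, 15 had FAIRE and 7 had H3K4me1. The shares over all protein-coding genes were 67.3%, 63.5%, 39.3% and 20%, and among genes with both H3K4me3 and H3K27Ac 59.6% had FAIRE and 28.8% H3K4me1. TNFRSF1A (a TNF receptor), IL1R1 (an interleukin receptor), the adaptors RIPK1 and TRAF1, BIRC2 and the kinase MAP3K14, which drives the non-canonical pathway, had all 4 kinds of promoter peak. MAP3K14 had the highest H3K4me1 score of these promoters, 624, and TNFRSF1A had H3K27Ac peaks over 39.2% of its window. The share of all protein-coding genes with all 4 kinds of promoter peak was not counted. The kB consensus was found in the promoters of 2 of the 22, near the 6.56% of all promoters.

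Other inhibitors and regulators were likewise marked throughout, with promoter H3K4me3 and H3K27Ac at 10 of 10 (67.3% and 63.5% of all genes), FAIRE at 7 and H3K4me1 at 5 (59.6% and 28.8% of genes with both marks, 39.3% and 20% of all). ZC3H12A, an RNase that degrades inflammatory transcripts, and TNIP1, TNIP2 and TNIP3, partners of A20, had all 4 kinds, a share not counted over all genes. A kB match lay in the promoters of 6 of the 10, against 6.56% of all promoters, so this list came closer to the 9 genes in that respect than the receptors and kinases did. TNIP1 had an H3K27Ac score of 3100 and a FAIRE height of 111 at its promoter.

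Of 26 target genes, H3K4me3 marked the promoters of 18 and H3K27Ac those of 19, near the 67.3% and 63.5% of all protein-coding genes. FAIRE marked 15, against 39.3%, and H3K4me1 11, against 20%. A kB match lay in the promoters of 9, against 6.56%. The cytokine genes IL6, CXCL8, CXCL2, IL1B and CSF2, the transcription factor gene IRF1, and SOD2 and CFLAR, which protect cells from death, had all 4 kinds of promoter peak. TNF, CCL2, CCL5, MMP9 and BCL2A1 had none. The shares of all protein-coding genes with all 4 kinds or with none were not counted, so these names are a description only. The FAIRE peak at CXCL8 reached a height of 152, and IL6 had an H3K27Ac score of 2903. The median share of the window under H3K4me1 was 9.26% over the targets, above the 5.84% of the 9 genes.

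**Figure D5:**
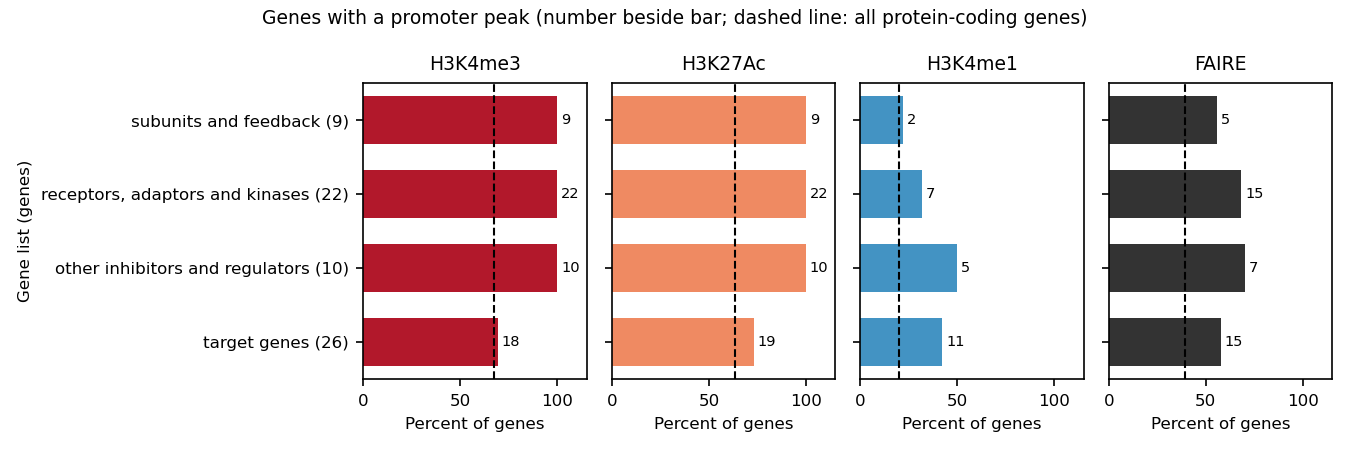
Percent of the genes of each list with a promoter peak (bars, with the number of genes beside each), for the 9 genes and the 3 other pathway lists. The dashed line is the share of all protein-coding genes, from 20% for H3K4me1 to 67.3% for H3K4me3.

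By percent of the window under the 4 lists, each put on a scale of percentiles over all genes, the gene most like each of the 9 was found among genes whose windows did not touch theirs. NFKBIA was closest to NR3C1, the glucocorticoid receptor gene (distance 2.20 percentile points), and BIRC3 to SRSF3 (1.99). TNFAIP3 was closest to TMCO2 (2.40) and NFKBIE to PROCA1 (3.30). For the subunits the closest genes were ZNF267 for NFKB1 (3.72), ZFP41 for NFKB2 (2.87), CWC25 for RELA (1.36), ALKBH7 for RELB (1.79) and MSL3 for REL (1.27). Likeness over 4 values says nothing of shared control.

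Marker genes were set beside the label of the line. VIM, CD44, AXL and CAV1, markers of mesenchymal breast cancer lines, had all 4 kinds of promoter peak. Over all protein-coding genes the shares were 67.3% for H3K4me3, 63.5% for H3K27Ac, 20% for H3K4me1 and 39.3% for FAIRE. The shares of genes with all 4 kinds or with none were not counted. ESR1 and PGR, the hormone receptor genes, had promoter H3K4me3 without H3K27Ac or FAIRE, with scores of 1258 and 399.5. ERBB2 had all 4 kinds. Of the epithelial markers, EPCAM and KRT8 had all 4, KRT18 lacked H3K4me1, and CDH1 had H3K27Ac and FAIRE without H3K4me3. By kinds of promoter peak, ERBB2, EPCAM and KRT8 were thus not set apart from the mesenchymal markers. The leukocyte markers PTPRC, CD3E and SPI1 and the endothelial CDH5 had none of the 4, and PECAM1 was not analysed here.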

How the data were processed

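The authors called histone peaks with MACS against input DNA and deposited a score for each, minus 10 times log10 of its p-value. FAIRE peaks were called by the authors with FindPeaks, and the deposited value is a height, a signal of overlapping fragments. The study's methods give BWA 0.6.1 as aligner, whereas the submitters' processing notes list TopHat and HOMER; the build is GRCh37 (hg19). The study's methods describe pooling within each assay, after a look at the single samples. Each assay has 1 deposited list for the combined samples, and read depths are not in the lists.

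Start sites and gene bounds came from GENCODE 44 lifted to GRCh37. Overlap meant at least 1 shared base. A distal peak shared no base with a coding start site widened by 1 kb. Shares of genes or peaks with a lower value were taken over all protein-coding genes for windows, over genes with a promoter peak for promoters, and over the list for single peaks. The distances between genes used mid-rank percentiles, in which tied genes share a rank. Python 3.11.15, numpy 2.4.6, pandas 2.3.3 and scipy 1.17.1 were used, and overlap counts were checked on simulated data against bedtools 2.31.1. Figures were drawn with matplotlib 3.10.9. Members and gene lists were chosen with earlier results of these data known.

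Genes were named by rule: the 9 members, the highest FAIRE and H3K27Ac peak of each window outside coding start sites, coding neighbours with a marked start site, the closest gene in coverage for each member, and pathway or marker genes with all 4 or none of the 4 promoter peaks. The sequence of 1 promoter and 1 leukocyte marker are not reported here. Further genes and peaks named were chosen after their values were seen. Alternatives covered promoter width, start sites, peak centres, window width, stricter peaks, motif letters and motif windows.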

Additional observations from a re-analysis of the deposited data

How the results depend on the processing

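No paired analysis was possible because the replicates of an assay were merged into its list. Of 63 alternative values, 52 stayed within 1.5 times the main value or, for percentages, within its 95% Wilson interval, and 11 did not. Among those that stayed, the peak centre inside the start site gave 8 genes with promoter H3K4me3 (64.7% of all genes), 7 with H3K27Ac (57.7%; without REL and NFKBIE) and 46 other pathway genes with H3K4me3, from 50. The kB count of the promoters was 8 in each setting, while the share of all promoters rose from 6.56% to 15.2% with looser letters and 12.5% in the longer stretch. FAIRE peaks with a kB match went from 10.6% to 19.1% with looser letters and 21.3% with 600 bases, inside the wide interval, and those of the list from 3.43% to 8.01% and 6.6%. H3K4me1 promoters fell from 2 genes to 1 with start sites widened by 500 bp (17.8% of all genes), with protein-coding transcripts only (16.4%) and, chosen after seeing the data, with the canonical start site only (12.3%), and to 0 when the peak centre had to lie inside (8.64%). With only FAIRE peaks of at least median height kept, promoter FAIRE fell from 5 genes to 2, NFKB2 and BIRC3 (24.4% of all genes), as did the 3 peaks together (2, against 22.9%), FAIRE peaks per 100 kb fell to 1.83 (0.897 over all genes), and distal FAIRE peaks with H3K27Ac rose to 83.3% (82.4% over the list). With start sites widened by 2 kb, promoter FAIRE rose to 7 genes, adding NFKB1 and TNFAIP3 (43% of all genes). With windows widened by 20 kb, the median share under H3K4me3 was 13.3% (4.15% over all genes) and under H3K4me1 2.55% (0%), and with 100 kb the H3K4me3 share was 5.27% (3.38%). With histone peaks of p at or under 1e-10 only, the median share under H3K4me1 was 5.84%, against 0% over all genes. Promoter H3K4me1 was then found at 2 genes, against 11.2% of all genes. The cause of these changes was not tested.

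The lists limit what can be said. A missing peak means only that none was called, and depth, which sets how weak a peak can be called, is not in the lists. H3K4me3 scores pile up at 3100, so they rank strong promoters poorly. Scores rest on p-values and grow with depth and width. No list links a distal peak to a gene, and windows hold peaks of neighbours. The 9 genes are not replicates.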

Other observations

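The promoter of BIRC2, the tandem paralogue of BIRC3, held no kB match from 250 bases before to 50 bases after its canonical start site, but a FAIRE peak of height 94.9 upstream of it (chr11:102216453-102217140) held a pair. The first began 1136 bases before the start site and the pair was 65 bases apart, close to the 64 bases in BIRC3. The stretch (chr11:102216793-102216899, plus strand, GRCh37), in intergenic sequence, is printed with the matches in capitals, and was chosen after its letters were seen.
BIRC2 upstream: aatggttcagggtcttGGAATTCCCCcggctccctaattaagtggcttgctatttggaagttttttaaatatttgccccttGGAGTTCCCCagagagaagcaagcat

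Some target genes had windows under acetylation far beyond those of the 9 genes, and were picked for these values. H3K27Ac peaks covered 55.8% of the window of LIF, 50.1% of that of IER3 and 46.4% of that of BCL2L1, against at most 25.2% among the 9. LIF had a promoter H3K27Ac score of 3100 with neither H3K4me3 nor FAIRE at a start site. At CCL20, a chemokine gene, H3K4me1 (score 311) was the only promoter peak.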
